A study of Mus musculus with 8 samples.

Results

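The histone genes measured here encode the proteins around which DNA is wound, namely the core histones H2A, H2B, H3 and H4 and the linker histone H1. They were chosen by symbol alone, as every transcript cluster (the array's unit of measurement) whose annotation holds a single symbol beginning as histone symbols do, and each gene was represented by its cluster of highest mean signal. This gave 34 of the 22180 genes with a cluster of their own. Of these, 24 are replication-dependent genes, with 18 in the *Hist1* cluster, 5 in the *Hist2* cluster and 1, *H4f16*, at the *Hist4* locus. A further 5 are variant genes, 3 lie in the clusters but are associated with the testis, and 2 are annotated as pseudogenes. No H3 gene had a cluster of its own, so H3 and its variant H3.3 were read only through clusters that several genes share.

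The cultures were of O9-1, mouse cranial neural crest cells (cNCCs) that had been immortalized, a cell type that gives rise to facial mesenchyme. After 24 h of attachment, 4 cultures received vehicle and 4 received SHH-N, the signalling fragment of sonic hedgehog (SHH), at 0.4 μg/mL, all in DMEM with 1% FBS, and RNA was taken 48 h after SHH was added. All 8 cultures are of this 1 immortalized line, which limits them as a model of the crest in the embryo. The labels call the cultures biological replicates, without saying whether they were grown on separate days.

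Replication-dependent histone genes lie together in the genome, have no introns and are transcribed mainly while DNA is copied in S phase. Their mRNAs end in a stem-loop in place of a poly(A) tail. The reverse transcription used for these arrays primed mRNAs with and without a poly(A) tail, so both kinds of histone mRNA could be read. Variant histone genes lie elsewhere, are expressed also outside S phase, and supply histones such as H2A.Z that are placed in chromatin independently of replication.

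The promoters of the genes that carried the largest changes, and of 2 close neighbours that were not called, show how these genes differ upstream of their starts. The sequences are the 100 bases before the RefSeq start on GRCm38.p6, read 5′ to 3′ on the strand of the gene. Capitals mark 3 motifs, each searched on either strand. The element that positions the start of transcription at many genes was searched as TATAAA. The binding site of the factor NF-Y was searched as CCAAT, which reads ATTGG on the other strand, and the octamer known from H2B promoters as ATTTGCAT.
*H2bc12*, chr13:22035721-22035820, plus strand: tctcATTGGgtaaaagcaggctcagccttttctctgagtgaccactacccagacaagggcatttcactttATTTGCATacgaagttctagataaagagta
*H1f5*, chr13:21780626-21780725, minus strand: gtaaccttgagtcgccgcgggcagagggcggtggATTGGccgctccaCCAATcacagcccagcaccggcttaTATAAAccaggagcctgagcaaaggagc
*H2ac10*, chr13:23533775-23533874, plus strand: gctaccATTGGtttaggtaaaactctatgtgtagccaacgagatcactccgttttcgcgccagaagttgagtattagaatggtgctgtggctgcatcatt
*H2ac15*, chr13:21753913-21754012, minus strand: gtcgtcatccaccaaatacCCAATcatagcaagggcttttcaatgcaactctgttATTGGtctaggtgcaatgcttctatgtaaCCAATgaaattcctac
*H2bc3*, chr13:23746634-23746733, plus strand: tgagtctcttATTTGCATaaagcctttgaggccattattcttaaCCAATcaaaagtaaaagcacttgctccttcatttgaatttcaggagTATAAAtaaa
*H2ac12*, chr13:22035644-22035743, minus strand: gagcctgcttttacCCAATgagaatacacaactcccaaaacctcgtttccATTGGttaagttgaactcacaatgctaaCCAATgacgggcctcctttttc
*H4c12*, chr13:21750554-21750653, minus strand: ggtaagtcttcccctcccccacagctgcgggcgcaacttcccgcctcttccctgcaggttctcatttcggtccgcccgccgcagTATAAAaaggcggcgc

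RefSeq held a promoter for 30 of the 34 histone genes, 22 of them replication-dependent. Within 250 bases upstream, on either strand, CCAAT was present in 16 of these 22 genes (72.7%), against 34.5% of 27025 mouse genes with a promoter of the same length. TATAAA was present in 11 (50%) against 13% of all genes, and ATTTGCAT in 6 (27.3%) against 1.61%. By family, ATTTGCAT was found in 4 of 6 H2B promoters, and AAACACA, the H1 box of linker histone promoters, in 3 of 4 H1 promoters against 6.22% of all genes. CCAAT was found in all 6 H2B, all 5 H2A and all 4 H1 promoters of the replication-dependent genes, called or not, and in 1 of 7 H4 promoters. None of the 5 variant promoters held TATAAA, ATTTGCAT or AAACACA, and 3 held CCAAT. Of the E2F letters searched, TTTCCCGC was found in 1 replication-dependent promoter (4.55%, against 0.929% of all genes) and TTTGGCGC in 0 (against 0.437%). Only these spellings were searched, so the counts do not cover E2F sites written otherwise. TTTCGCGC, which was not searched, occurs in the printed promoter of *H2ac10*. A match describes letters and is not evidence of a bound site, and some matches of different motifs may overlap.

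SHH stimulation of cNCCs raised 8 of the 34 histone genes and lowered 0 at a Benjamini-Hochberg adjusted p under 0.01 by limma (23.5% raised), where 4.79% of all genes with a cluster of their own were raised and 5.19% lowered. The other 26 did not pass. The difference between the treatment means was above 0 for 31 of the 34 genes, with a median of 0.29 on the log2 scale against 0.01 over all genes, and it ranged from -0.19 to 2.41. In 14 histone genes the 4 SHH cultures all lay above the 4 vehicle cultures, an order found in 12.6% of all genes, and in 0 histone genes did they all lie below, an order found in 12.5% of all genes. Among genes whose mean signal was above the median of the arrays, 7.73% were raised and 8.73% lowered.

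The replication-dependent genes held 7 of the 8 raised genes, 7 of 24 (29.2%), and all 5 that rose at least 2-fold, a size reached by 1.41% of all genes. Of the variant genes 1 of 5 rose, by less than 2-fold. The median difference was 0.38 over the replication-dependent genes and 0.39 over the variants. The variant median is the value of 1 gene, *H2az1* (SE 0.29), and was 0.18 without vehicle replicate 1 and 0.22 without SHH replicate 4, while the other stayed between 0.32 and 0.40 with any culture left out. The difference between the classes was not tested, and variants that the symbol rule leaves out, *H2ax* and *Cenpa*, rose by 1.15 and 0.89.

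**Figure D1:**
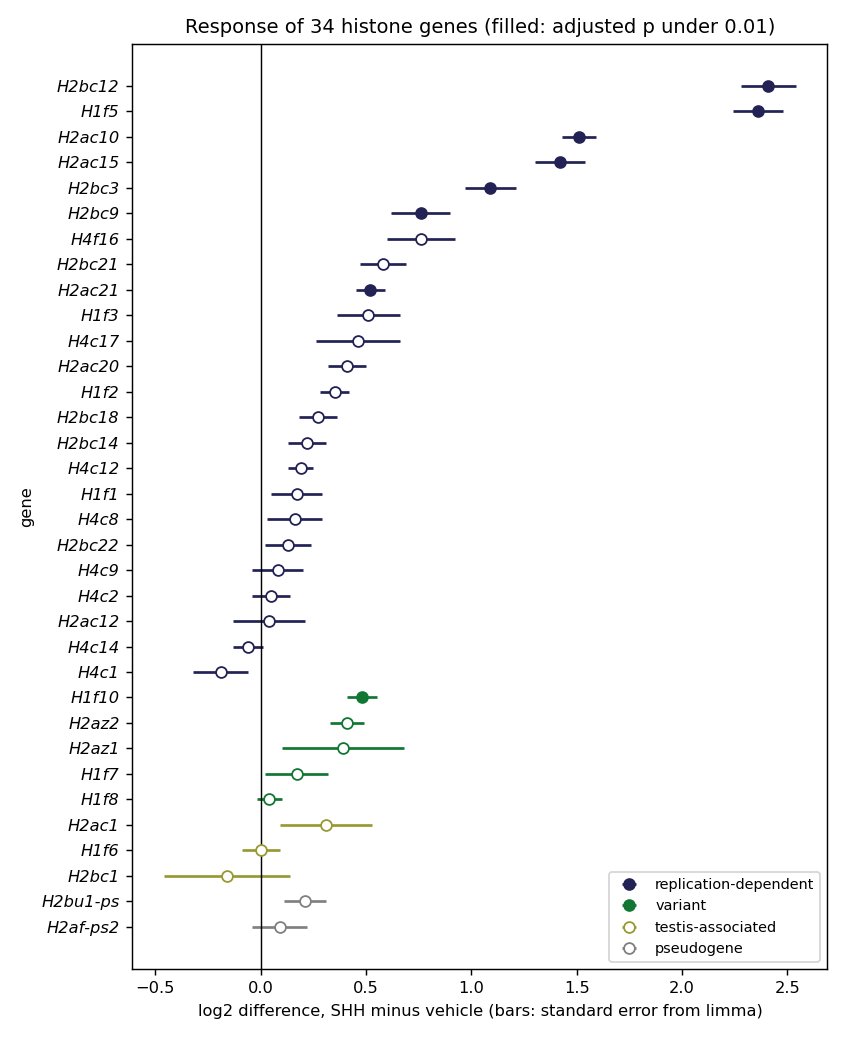
The log2 difference between SHH and vehicle means (x axis) of each of the 34 histone genes (y axis), ordered by class, with bars giving the standard error from limma and filled points the genes at an adjusted p under 0.01. The filled points run from 0.48 for *H1f10* to 2.41 for *H2bc12*, and 3 genes, *H4c1*, *H4c14* and *H2bc1*, lie below 0.

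H2B pairs with H2A in the nucleosome, and 3 of its 7 replication-dependent genes rose. *H2bc12* (*Hist1h2bk*) had log2 signals of 6.06, 6.21, 6.27 and 5.98 in the vehicle cultures and 8.47, 8.67, 8.21 and 8.81 in the SHH cultures. The vehicle mean was 6.13 ± 0.13 and the SHH mean 8.54 ± 0.26 (SD, n = 4 each), for a log2 difference of 2.41 (SE 0.13, adjusted p = 9.98e-06) or 5.32-fold, and the treatments were separated by far more than the spread within either. *H2bc3* (*Hist1h2bb*) read 7.59, 7.25, 7.58 and 7.81 with vehicle and 8.69, 8.58, 8.55 and 8.78 with SHH. It rose by 1.09 (SE 0.12, adjusted p = 4.45e-04, 2.13-fold), again without overlap.

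The third H2B gene to rise, *H2bc9* (*Hist1h2bh*), was dim, below the median of every array, with 4.62, 4.27, 4.44 and 3.99 in vehicle and 5.24, 5.19, 4.97 and 4.95 in SHH cultures. Its difference of 0.76 (SE 0.14, adjusted p = 0.00821) was the closest to the threshold among the raised genes, and it passed without vehicle replicate 1 but not when any other culture was left out (adjusted p up to 0.0292). Just outside the threshold lay *H2bc21* (*Hist2h2be*), at 5.63, 5.49, 5.57 and 5.94 against 6.21, 6.15, 6.14 and 6.44, with a difference of 0.58 (SE 0.11, adjusted p = 0.0114) and no overlap. The remaining H2B genes, *H2bc14*, *H2bc18* and *H2bc22*, had differences from 0.13 to 0.27 and were not called. Over the 7 genes the median difference was 0.58.

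H2A, the partner of H2B, had 3 of 5 replication-dependent genes raised, with a median difference of 0.52. *H2ac10* (*Hist1h2af*), the brightest of the raised genes, had signals of 9.89, 9.72, 9.81 and 9.77 with vehicle and 11.22, 11.30, 11.20 and 11.52 with SHH. Its mean went from 9.80 ± 0.07 to 11.31 ± 0.15, a difference of 1.51 (SE 0.08, adjusted p = 9.79e-06) or 2.84-fold. *H2ac15* (*Hist1h2ak*) was measured at 7.06, 7.24, 7.26 and 6.88 in vehicle and 8.45, 8.55, 8.34 and 8.77 in SHH cultures, a rise of 1.42 (SE 0.12, adjusted p = 1.00e-04, 2.67-fold). In both genes every SHH culture exceeded every vehicle culture by more than the range of either treatment.

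*H2ac21* (*Hist2h2ab*) rose by a smaller amount, from 9.18, 9.26, 9.26 and 9.21 to 9.70, 9.71, 9.69 and 9.91, a difference of 0.52 (SE 0.07, adjusted p = 0.00109, 1.44-fold). The gene has a further, dimmer cluster at a mean signal of 5.14, where the difference was 0.10 (adjusted p = 0.586), and the mean over both clusters was not called. *H2ac20* was not called, at 0.41 (SE 0.09, adjusted p = 0.021), although its treatments did not overlap. *H2ac12* had the lowest signal of all 34 genes, 2.42 on average, and a difference of 0.04.

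Linker histones bind the DNA that enters and leaves the nucleosome, and 1 of the 4 replication-dependent H1 genes rose. *H1f5* (*Hist1h1b*), encoding H1.5, had signals of 5.56, 5.83, 5.40 and 5.54 with vehicle and 8.18, 7.96, 7.84 and 7.79 with SHH. Its mean went from 5.58 ± 0.18 to 7.94 ± 0.17, a difference of 2.36 (SE 0.12, adjusted p = 5.24e-06) or 5.13-fold. The vehicle mean lay below the array medians, so this fold is a lower bound if the vehicle signal is background.

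The other 3 H1 genes of the *Hist1* cluster that had a transcript cluster of their own were not called. *H1f2* (*Hist1h1c*), encoding H1.2, was the brightest H1 gene, at 9.84, 9.83, 9.88 and 9.80 against 10.24, 10.29, 10.12 and 10.07. The treatments did not overlap, but the difference of 0.35 (SE 0.07, adjusted p = 0.01003) lay just past the threshold on the side of genes not called. *H1f3* (*Hist1h1d*) had 4.79, 4.53, 4.87 and 4.64 with vehicle and 4.81, 5.20, 5.40 and 5.44 with SHH, a difference of 0.51 (SE 0.15, adjusted p = 0.0629), with 1 SHH culture among the vehicle values. *H1f1* (*Hist1h1a*) was dim in all cultures, at 3.65, 3.74, 3.36 and 3.80 against 4.0, 3.61, 3.69 and 3.93, and its difference of 0.17 (SE 0.12, adjusted p = 0.465) was within the spread. The median over the 4 genes was 0.43.

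H4, the partner of H3, had 0 of 8 genes raised by limma, although 6 of the differences were above 0. The median was 0.12, with a range from -0.19 for *H4c1* to 0.76 for *H4f16*. Of the 8 genes, 3 had a mean signal above the median of the arrays, against 4 of 5 H2A and 5 of 7 H2B genes. Of those H2B genes, *H2bc21* and *H2bc14* had vehicle means of 5.66 and 5.63, below the median of 5.73, and passed it through their SHH arrays. Among all 24 replication-dependent genes, 6 of the 14 above that median and 1 of the 10 below it were raised. Over the 24 the difference increased with mean signal (Spearman rho 0.58). The mean signal includes the SHH arrays, so a rise itself adds to it. *H1f5*, with a vehicle mean of 5.58, was above the median only through its SHH arrays. Whether brighter genes responded more therefore cannot be read from these counts or from rho. Whether H4 differs from the other families at like signal was not tested. *H4f16* (*Hist4h4*) was measured at 7.51, 7.45, 7.88 and 7.70 with vehicle and 8.41, 8.36, 8.04 and 8.76 with SHH. Its treatments did not overlap, yet SHH replicate 3 lay close to the vehicle range and the adjusted p was 0.0156 (SE 0.16). *H4c12* (*Hist1h4k*) was the brightest histone gene with its own cluster, at 12.89, 12.83, 12.97 and 12.80 against 13.05, 13.04, 13.03 and 13.15, and had a difference of 0.19 (SE 0.06, adjusted p = 0.09). The SHH cultures lay above the vehicle cultures, by less than the range of the vehicle cultures.

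**Figure D2:**
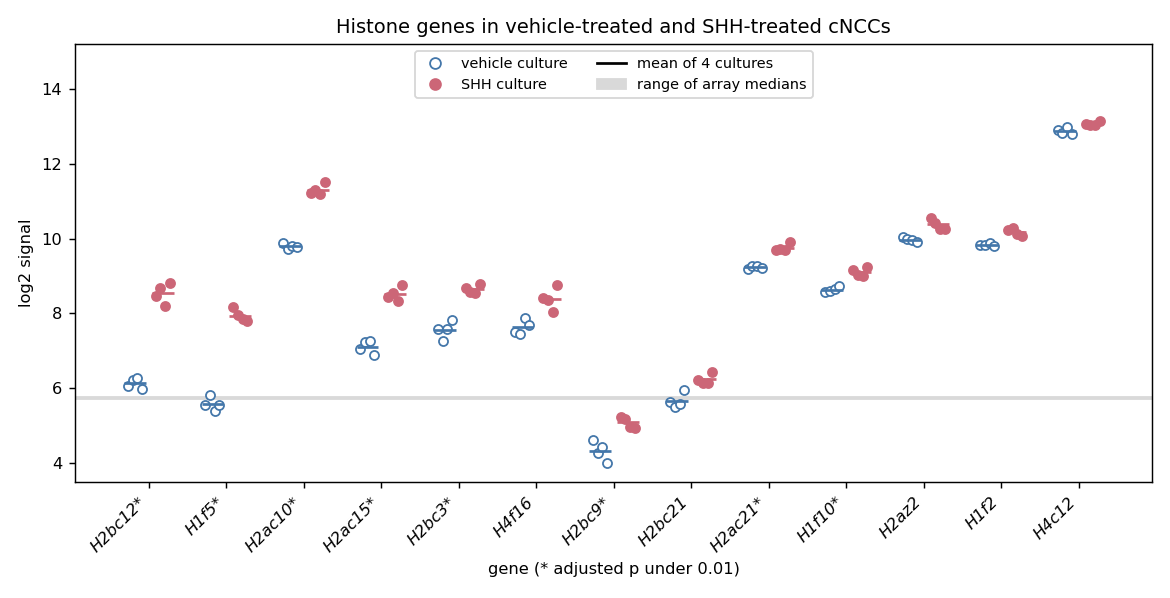
Log2 signal (y axis) of 13 histone genes (x axis) in each of the 4 vehicle cultures (open) and 4 SHH cultures (filled), with lines at the means, a grey band over the range of the array medians and an asterisk for an adjusted p under 0.01. The genes drawn are the called ones and *H1f2*, *H2az2*, *H2bc21*, *H4f16* and *H4c12*. All are among the 14 of 34 histone genes whose SHH cultures lie above the vehicle cultures, so the separation seen here follows from the choice of genes. The differences run from 2.41 for *H2bc12* to 0.19 for *H4c12*.

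Several of the genes are neighbours. *H2bc12* and *H2ac12* lie head to head, and their printed promoters overlap on opposite strands. Because the *H2ac12* cluster was below the median of every array, its response could not be set against that of *H2bc12*. *H4c12* follows *H2ac15* on the same strand, and both were above the median on all 8 arrays, with log2 differences of 0.19 (SE 0.06) and 1.42 (SE 0.12), a contrast between genes that was not tested. Of the 18 genes of the *Hist1* cluster 6 rose (33.3%, median 0.28), as did 1 of the 5 of the *Hist2* cluster (20%, median 0.41). Over all genes 4.79% were raised. Mean signal, which includes the SHH arrays, was above the median of the arrays for 8 of the 18 and for all 5. The loci were not compared by a test.

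Histone genes of a family are near-identical in sequence, and 46 further clusters carried several symbols including a histone gene. After 3 sets of identical values were counted once, 43 remained, which can be read for a histone family but not for a gene. Of the 35 whose symbols are all histone genes, 9 rose and 0 fell, 33 had a difference above 0 and the median was 0.46, where 2.97% of all clusters on the array were raised and 3.51% lowered. H2A and H2B again held most of the raised clusters, with 4 of 9 H2A clusters (median 0.66) and 4 of 8 H2B clusters (median 0.62). Of the H3 clusters 1 of 12 was raised (median 0.34) and of the H4 clusters 0 of 5 (median 0.38). The 1 cluster naming both H1 and H2B genes had a difference of 0.12 and was not called. Nor was the 1 cluster that names an H1 gene beside a gene that is not a histone (0.01). Mean signals reached 12.12 in H2A and 13.11 in H2B clusters, but only 9.91 in H3 and 6.15 in H4 clusters. Probes for such similar sequences can bind mRNA of several genes, so these clusters and those annotated to 1 gene are not independent, and a value given to 1 gene of a family is uncertain to that extent.

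Among the shared clusters the brightest H2B cluster, which names 4 genes, had signals of 12.75, 12.71, 12.76 and 12.70 with vehicle and 13.47, 13.50, 13.48 and 13.50 with SHH. It rose by 0.76 (SE 0.05, adjusted p = 2.40e-05), with all SHH cultures above all vehicle cultures by more than the range of either. The brightest H2A cluster, which names 3 genes at a mean signal of 12.12, had a difference of 0.19 (SE 0.06, adjusted p = 0.093) and was not called. Another H2A cluster, naming 10 genes, went from 10.40, 10.22, 10.37 and 10.27 to 11.59, 11.63, 11.60 and 11.77, a rise of 1.33 (SE 0.07, adjusted p = 6.19e-06). The only H3 cluster raised, naming 8 genes, went from 9.36, 9.50, 9.51 and 9.85 to 10.31, 10.39, 10.16 and 10.22, a rise of 0.72 (SE 0.11, adjusted p = 0.0031).

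H3.3, the H3 variant that is placed in chromatin outside replication, was read by 7 clusters shared among *H3f3a*, *H3f3b* or *H3f3c* and predicted genes. None of the 7 passed by limma, and their differences ran from 0.03 to 0.24 with a median of 0.10. The brightest had 12.64, 12.66, 12.61 and 12.57 with vehicle and 12.66, 12.73, 12.74 and 12.75 with SHH, a difference of 0.10 (SE 0.05, adjusted p = 0.305), and the treatments touched at 12.66. The replication-dependent H3 clusters had the larger median, 0.34 against 0.10, a difference between families that was not tested. Their mean signals ran from 2.31 to 9.91, where those of the H3.3 clusters ran from 6.80 to 12.67. The H3 median lies between clusters at 0.33 and 0.35 with mean signals of 2.74 and 2.89, so dim clusters set its value.

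**Figure D3:**
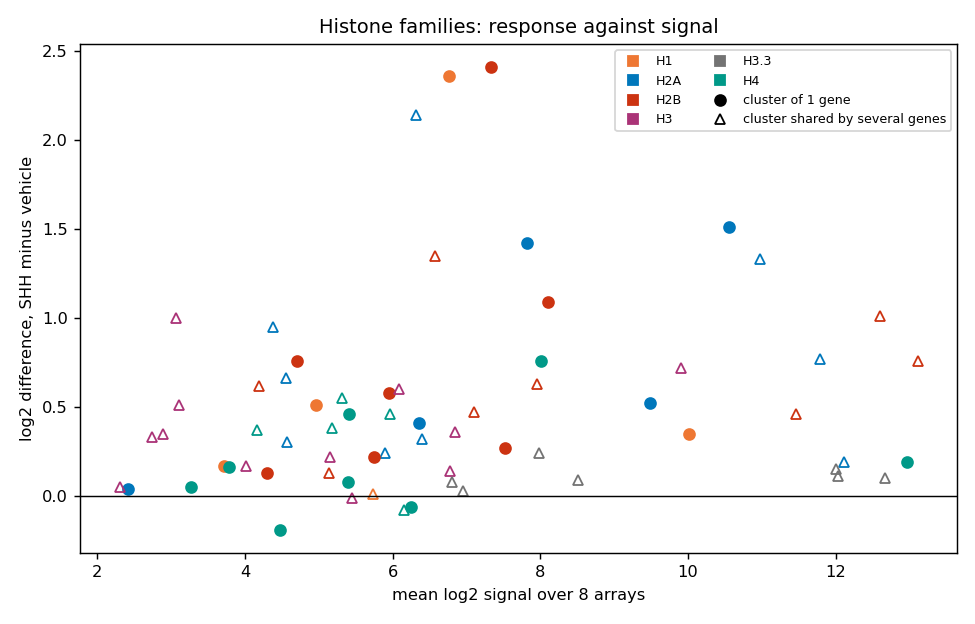
The log2 difference between SHH and vehicle (y axis) against the mean log2 signal over 8 arrays (x axis), with a circle for each replication-dependent gene that has its own cluster and a triangle for each cluster shared by several genes, coloured by histone family. H2A and H2B points reach above 1 at mean signals from 6.31 to 12.60. The H3.3 triangles stay between 0.03 and 0.24 and the H4 points between -0.19 and 0.76.

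Of the variant genes, *H1f10* (*H1fx*), a replication-independent linker histone, rose from 8.56, 8.59, 8.64 and 8.72 to 9.15, 9.03, 8.99 and 9.25. The difference was 0.48 (SE 0.07, adjusted p = 0.00354), or 1.4-fold, without overlap. The call was lost without vehicle replicate 1, 2 or 3 or SHH replicate 1, at adjusted p from 0.0126 to 0.0149. *H2az2* (*H2afv*), encoding a form of H2A.Z, was at 10.03, 9.98, 9.95 and 9.92 against 10.56, 10.42, 10.26 and 10.26, a difference of 0.41 (SE 0.08, adjusted p = 0.0122) that was not called. Its treatments did not overlap either.

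*H2az1* (*H2afz*), encoding the other H2A.Z, varied widely between cultures, at 4.84, 5.41, 5.70 and 5.91 with vehicle and 6.10, 5.64, 5.27 and 6.41 with SHH. Its difference of 0.39 (SE 0.29, adjusted p = 0.487) was smaller than the spread within either treatment (SD 0.46 and 0.50). The remaining variants belong to germ cells. *H1f7* (*H1fnt*), of spermatids, was at 4.75, 4.53, 5.09 and 4.93 against 4.87, 5.36, 4.90 and 4.87, and *H1f8*, of oocytes, at 5.25, 5.21, 5.39 and 5.22 against 5.26, 5.26, 5.39 and 5.34. Both overlapped between treatments and lay below the array medians.

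The testis-associated genes of the clusters did not pass. *H1f6* (*Hist1h1t*), the testis linker histone, read 4.65, 4.65, 4.48 and 4.72 with vehicle and 4.81, 4.62, 4.47 and 4.61 with SHH, with a difference of 0.00 (SE 0.09, adjusted p = 0.991). *H2ac1* and *H2bc1*, a head-to-head pair encoding the testis forms of H2A and H2B, had differences of 0.31 (SE 0.22) and -0.16 (SE 0.30). The pseudogenes *H2af-ps2* and *H2bu1-ps* had 0.09 and 0.21.

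Per culture, the replication-dependent genes had a median deviation from the vehicle mean of -0.04, 0.01, 0.10 and -0.04 in the vehicle cultures and 0.36, 0.47, 0.28 and 0.41 in the SHH cultures. The 5 variants had -0.07, -0.06, 0.12 and 0.09 against 0.52, 0.41, 0.13 and 0.29, so their SHH replicate 3 lay within 0.01 of a vehicle culture while no replication-dependent median did. Over all genes the medians stayed between -0.00 and 0.02.

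Histone mRNA is made and matured by a dedicated set of factors, and histones are carried to DNA by chaperones. Of 25 listed genes for transcription and 3′ end processing of histone mRNA 23 were measured, and 1 rose (4.35%, against 4.79% of all genes and 7.73% of genes above the median signal) and 0 fell, with a median of 0.12. The difference was above 0 for 20 of the 23. In 9 of them all SHH cultures lay above all vehicle cultures and in 1 all lay below, orders found in 12.6% and 12.5% of all genes. The gene that rose was *Slbp*, whose protein binds the stem-loop, at 8.58, 8.45, 8.51 and 8.38 against 8.90, 8.98, 8.94 and 8.79, a difference of 0.43 (SE 0.07, adjusted p = 0.00456). It was not called when vehicle replicate 2 or 4 or SHH replicate 1, 2 or 3 was left out. *Npat*, the coactivator of the histone clusters, was at 0.24 (adjusted p = 0.0255) and not called.

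Of 39 listed chaperone and assembly genes 34 were measured, and 10 rose (29.4%, against the same 4.79% and 7.73%) and 0 fell, with a median of 0.09. *Asf1b*, which hands H3-H4 to the assembly factors, rose the most, from 7.07, 6.94, 6.93 and 6.69 to 8.49, 8.26, 8.43 and 8.28, a difference of 1.46 (SE 0.10, adjusted p = 2.61e-05). *Chaf1a* and *Chaf1b*, subunits of the complex that deposits H3-H4 behind the replication fork, rose by 1.06 (adjusted p = 3.38e-04) and 1.00 (adjusted p = 2.75e-04). *Mms22l*, whose protein acts at stalled replication forks, rose by 0.94 (adjusted p = 7.38e-04) and *Mcm2*, a helicase subunit that binds H3-H4, by 0.92 (adjusted p = 1.31e-04). The other raised members, *Dnajc9*, *Hat1*, *Mis18a*, *Anp32e* and *Nasp*, rose by 0.57, 0.54, 0.53, 0.48 and 0.42. The chaperones of H3.3 deposition, *Hira*, *Daxx* and *Atrx*, had differences of -0.02, -0.02 and 0.03, with adjusted p from 0.848 to 0.913. *Asf1a*, the paralogue of *Asf1b*, had -0.00 (adjusted p = 0.995). These 4 were named after their values were seen.

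Of these lists the S phase genes had the largest share raised. Of 36 listed, 33 were measured, and 28 rose and 0 fell, with a median of 0.64. The share raised was 84.8%, against 4.79% of all genes and 7.73% of genes above the median signal. The mean signal of the list was 7.05 to 7.15 in the vehicle arrays and 7.89 to 7.99 in the SHH arrays. *Ccna2*, encoding the cyclin of S phase and G2, rose by 2.46 (SE 0.15, adjusted p = 1.99e-05), and *Mcm5*, of the replicative helicase, by 1.89 (adjusted p = 2.93e-06). *E2f8*, a repressor among the E2F factors, rose by 1.74, *Rrm2*, a subunit of ribonucleotide reductase, by 1.53, and *Dtl*, which directs the destruction of the licensing factor CDT1, by 1.30. In bulk cultures a larger share of cells in S phase and more histone mRNA per cell cannot be told apart, and the part of the S phase genes in the histone result was not tested.

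**Figure D4:**
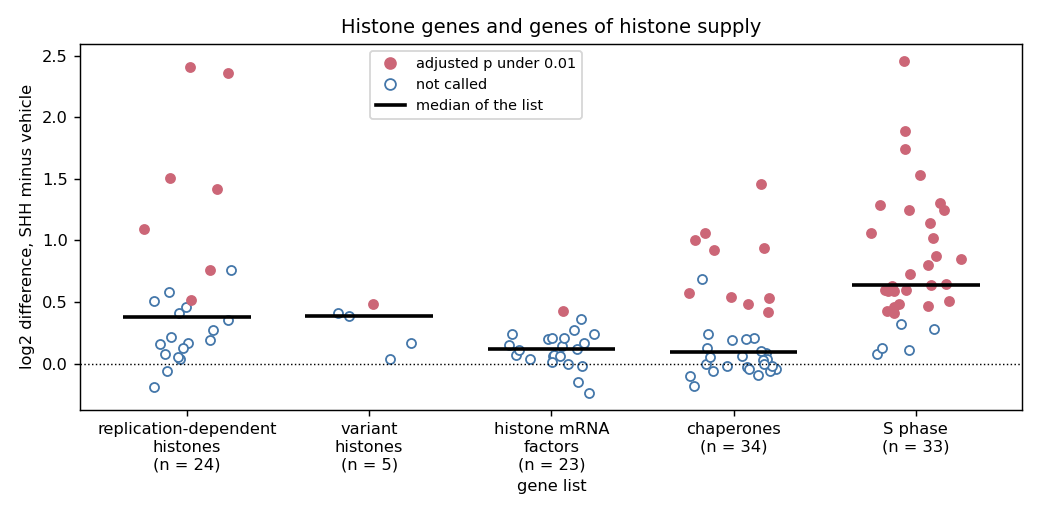
The log2 difference between SHH and vehicle (y axis) of each gene in 5 lists (x axis), filled at an adjusted p under 0.01, with a bar at the median of each list. The S phase list has the highest median, 0.64, while the histone mRNA factors sit at 0.12 with 1 filled point and the chaperones at 0.09 with 10.

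Histone genes that the symbol rule left out were looked at after their values were seen. *H2ax*, encoding the H2A form that is phosphorylated at DNA breaks, went from 9.39, 9.55, 9.69 and 9.52 to 10.76, 10.58, 10.72 and 10.66, a rise of 1.15 (SE 0.08, adjusted p = 3.21e-05). *Cenpa*, the H3 variant of centromeres, went from 6.44, 6.68, 6.62 and 6.49 to 7.47, 7.47, 7.66 and 7.20, a rise of 0.89 (SE 0.10, adjusted p = 6.88e-04). In both, no SHH culture reached down to the vehicle range. *H2aj*, *H2aw*, *Macroh2a1* and *Macroh2a2* had differences of 0.18, 0.16, 0.11 and -0.12 and were not called.

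The arrays had median log2 signals from 5.70 to 5.76, and arrays of the same treatment correlated at 0.988 to 0.991 against 0.980 to 0.984 between treatments. On the first principal component (42.2% of the variance) SHH replicate 3 lay at 22.5, the other SHH arrays at 36.0 to 39.2 and the vehicle arrays at -36.7 to -28.6. The SHH targets *Gli1* and *Ptch1* rose by 4.71 (adjusted p = 2.08e-07) and 4.39 (adjusted p = 1.61e-08), and *Gapdh* differed by -0.04 (adjusted p = 0.722). Of 16 measured crest and mesenchyme markers 13 were above the array median on all 8 arrays, *Twist1*, *Prrx1* and *Pdgfra* among them. *Sox10* was above it on 5 arrays, *Msx2* on 2 and *Tfap2b* on 0. Of the 16, 4 rose and 4 fell, *Prrx1* among the latter (-0.62), where 4.79% of all genes rose and 5.19% fell. Of the markers of other cells, 1 of 5 endothelial (*Cdh5*, 0.67) and 1 of 4 epithelial genes (*Cdh1*, 1.77) rose, with list means of 5.03 to 5.15 and 5.47 to 5.74 in vehicle arrays and of 5.15 to 5.37 and 6.08 to 6.17 in SHH arrays. The other epithelial genes were not called, with *Krt8* above the median on all 8 arrays and *Epcam* and *Krt14* below it on all. The other endothelial genes were not called either, and *Tek*, *Kdr* and *Emcn* were below the median on all arrays and *Pecam1* above it on 6. Of the remaining lists, the 5 neuronal, 3 leukocyte and 4 germ line genes measured were not called, although the neuronal list mean was 5.96 to 6.17 in vehicle and 6.21 to 6.41 in SHH arrays. The part of other cells in the histone result was not tested.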

How the data were processed

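Each of 8 cultures was measured on its own Affymetrix Mouse Gene 2.0 ST array. The authors determined intensities in GCOS, made signal files in Expression Console and used Transcriptome Analysis Console 2.0 for their own test. The deposited values are log2 signals, used as they are. The normalization algorithm, the genome build and a measure of background are not given in the sources used here. Precision is limited by the small number of arrays.

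The test was limma's (version 3.58.1, R 4.3.3; lmFit and eBayes, default settings, SHH minus vehicle, no filter, no block) over the full table of 41345 transcript clusters, with calls at an adjusted p under 0.01 (Benjamini-Hochberg over all clusters). Symbols came from the array annotation. The procedure was tested on simulated data. Alternatives were the replicate block, trend and robust settings, an unmoderated test, array weights, quantile normalization, median centring, a signal filter, other thresholds, the mean over clusters, shared clusters and each replicate left out. The members, lists and classes were chosen with earlier results of these data known.

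Values per culture are given for called replication-dependent genes, for variants that were called or bright and for every H1 gene with its own cluster. They are also given for the genes nearest the threshold and for others chosen after their values were seen (*H4f16*, *H4c12*, *H2az1* and shared clusters). Supply lists name up to 5 called members with the largest differences, and the chaperone list names all its called members. Promoters came from RefSeq (GRCm38.p6). The labels' replicate numbers were not taken to pair the samples. P-values measure the spread between these cultures.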

Additional observations from a re-analysis of the deposited data

Results flagged for a closer look

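In 4 of the 68 groups of 4 cultures examined, 1 culture stood apart from the others of its treatment by more than Dixon's critical value allows for its range, and chance flags about 1 in 20 groups. *H4c12* read 13.15 in SHH replicate 4 against 13.03 to 13.05 in the others, and *H2ac21* read 9.91 in the same culture against 9.69 to 9.71. *H1f7* read 5.36 in SHH replicate 2 against 4.87 to 4.90. *H2bc1* read 3.73 in vehicle replicate 1 against 2.24 to 2.46.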

How the results depend on the processing

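*H2bc12*, *H1f5*, *H2ac10*, *H2ac15* and *H2bc3* kept their rise under all 16 alternatives run, with adjusted p up to 0.00122, 4.68e-04, 0.00122, 0.00506 and 0.00319, and no result reversed. The count of 8 raised of 34 histone genes was 6 to 8 when 1 culture was left out and 12 with trend and robust settings. It was 12 among clusters above the median signal, 13 at an adjusted p under 0.05 and 17 with shared clusters added. The shared clusters include the 35 with histone symbols only, 9 of them raised, so the 17 is out of more units. At an adjusted p under 0.05, 7.66% of all genes were raised. Over the array 2679 of 41345 clusters were called in the main test. The trend and robust settings called 3536, and the signal filter 3558 of 20672. For the replication-dependent genes, 7 of 24 became 11 at an adjusted p under 0.05 and 6 to 7 with 1 culture left out. With shared clusters the count was 16, again out of more units. The median of these genes, 0.38, was 0.32 to 0.40 with 1 culture left out and 0.55 among clusters above the median signal. That filter uses the mean over all arrays, which *H1f5*, *H2bc21* and *H2bc14* passed through their SHH arrays. The 1 raised variant became 2 with trend and robust settings, array weights, quantile normalization, the signal filter, the mean over clusters or an adjusted p under 0.05, became 0 where a 1.5-fold change was also asked for, and was 0 to 1 with 1 culture left out, with a median difference of 0.18 to 0.44. The 1 raised histone mRNA factor became 4 with trend and robust settings or the signal filter, 2 with quantile normalization or median centring and 0 to 1 with 1 culture left out. With 1 culture left out, 8 to 10 chaperones and 23 to 27 S phase genes rose. The cause of these moves was not tested.

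The replicate number gave correlations of -0.02, -0.02, -0.01 and 0.02 between same-numbered cultures, so it was not taken to pair them. With 4 arrays per treatment such values cannot exclude a shared culture day, on which the labels are silent. With a replicate block 6 histone genes rose (5 of the 8, and *H2bc21*), with *H1f10*, *H2ac21* and *H2bc9* lost. By count, 0 variants, 0 histone mRNA factors, 4 chaperones and 17 S phase genes rose with the block, where 1, 1, 10 and 28 did without it, and 1240 clusters in place of 2679 were called in all. Signal over background could not be measured, which limits what can be said of dim genes.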
